A study of Mus musculus with 6 samples.

Results

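Solute carriers, ATP-binding cassette transporters and aquaporins move nutrients, ions, bile components, drugs and water across the membranes of the liver cell. The genes described here were chosen by symbol alone: those named Slc, Abc of subfamilies A, B, C, D or G, or Aqp, followed by a number, leaving out the bile transporters Slc10a1, Abcc2 and Abcb11. They were 176 of the 8251 genes that the array's annotation names by a single symbol, and were read by 212 probe sets. The rule itself uses no measured value, though it was set with earlier results of these data known. Of the 176, 104 had a mean over the 6 arrays at or above the floor, the level of 606 scaled units below which no level was read, and only these kept genes entered the counts below. Another 20 read above the floor on at least 1 array but not on the mean, and 52 lay below it on all arrays. A pair of the kept genes, Slc9a3r1 and Slc4a1ap, carry a solute carrier symbol but encode a scaffold and an adaptor protein, not a carrier.

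RNA was prepared from the livers of male mice 8 to 10 weeks old and read on 6 one-colour arrays, 1 array per group. The groups were Clock mutant mice at circadian time 14 h and 2 h (CT14, early subjective night, and CT02, early subjective day), mice labelled as Cry-deficient at CT14 and as lacking both Cry1 and Cry2 at CT02, and wild-type mice of the C57BL/6 background at CT14 and CT02. A background was stated for wild type only, so strain and genotype cannot be told apart, and neither the allele of the Clock mutant nor the number of mice behind an array is given in the sources. With 1 array per group no difference has a replicate error: sizes are given without p-values, and a gene counts as apart where its scaled intensities differ at least 2-fold. A fold printed as "at least" is against an array below the floor. Where such a bound is under 2-fold, or both arrays lie below the floor, the gene is not counted as apart. A 2-fold difference there is unread. Having 1 array per group limits how precise any value is, and in RNA of whole liver a lower level per cell cannot be told from fewer cells of a type.

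The targeted genes do not check the labels. Cry1 read 4718 and 3845 units at CT14 and CT02 on the arrays labelled Cry-deficient and 2723 and 1833 in wild type, and Cry2 read 1344 and 1185 against 2256 and 1215. The Cry1 values come from a probe set that may read related sequences, and the other probe sets of Cry1 lay below the floor on every array. The sources do not say whether the probes fall inside what was deleted. "Cry-labelled" is therefore used below, and every direction for these arrays rests on the label. The Clock level, 2069 and 1639.9 units in the Clock mutant and 1552 and 2429.7 in wild type, says nothing of a mutant allele. All 7 hepatocyte markers on the array were kept. Their summed level was lowest on the Clock mutant CT14 array, 71517 units, against 90596 to 109526 on the others. Ttr and Apoa1 were not lowest there, and Apoa1 lay below the floor at CT14 in every group. What part these levels have in the CT14 differences was not tested. Of 4 cholangiocyte markers on the array, Krt19, Krt7 and Epcam lay below the floor on every array. At CT14 and CT02 Cftr read 862 and 1702 units in the Clock mutant and 452 and 279 on the Cry-labelled arrays. In wild type it read 1076 and 661. Control probes at the 3' and 5' ends of a transcript give a ratio that reflects RNA length. For Actb it was highest in the Clock mutant at CT02 (2.68, with 0.84 to 1.70 elsewhere), and for Gapdh on the Cry-labelled CT02 array (2.37, with 0.56 to 0.72 elsewhere). What part this has in the CT02 differences was not tested.

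As background, hepatocytes take up glucose, amino acids, organic ions and fatty acids at the blood side through solute carriers, export bile components with ATP-driven pumps at the canaliculus, and pass metabolites into mitochondria through the Slc25 family. Aquaporins pass water, and some pass glycerol or other small solutes. The clock acts through the pair CLOCK and BMAL1, which binds E-box sequences, and through factors such as DBP and TEF, which bind D-box sequences.

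Of the 104 kept members, 75 (72.1%) were 2-fold apart in no comparison, beside 72.7% of all kept genes. A range of at least 2-fold over the 6 arrays was seen in 37 members (35.6%, beside 36.4% of all), and the median range of a member over the 6 arrays was 0.85 on the log2 scale, beside 0.83 over all kept genes. The other 29 are described below by role, led by Aqp8, Abcc5 and Slc26a1. In the counts that follow, the share of all 4844 kept genes 2-fold apart is given in parentheses, first in either direction and then higher and lower.

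Between times, 4 members were higher and 3 lower at CT14 than at CT02 in wild type (6.73% of the members; 4.56% of all, 2.48% and 2.09%). In the Clock mutant 5 were higher and 2 lower at CT14 (6.73%; 7.74% of all, 4.31% and 3.43%), and 10 and 1 on the unscaled values, whose median over all kept genes was 0.47 (log2). On the Cry-labelled arrays 7 were higher and 2 lower at CT14 (8.65%; 5.55% of all, 3.53% and 2.02%), and 10 and 1 on the unscaled values, with a median of 0.20. Abcc5 was in all 3 of these sets, higher at CT14 in wild type and lower at CT14 in both mutants.

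Against wild type, the Clock mutant had 4 higher and 7 lower at CT14 (10.6%; 9.76% of all, 4.13% and 5.64%). At CT02 it had 6 higher and 7 lower (12.5%; 11.8% of all, 4.25% and 7.51%), or 1 and 22 on the unscaled values, whose median was -0.53. The Cry-labelled arrays had 6 higher and 2 lower at CT14 (7.69%; 4.73% of all, 2.46% and 2.27%), and at CT02 2 higher and 7 lower (8.65%; 6.69% of all, 2.73% and 3.96%), or 3 and 6 after quantile normalization or lowess correction. The shares of the members stayed near those of all kept genes, and nothing is read from them about the members. Both mutants are set against the same wild-type arrays.

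**Figure D1:**
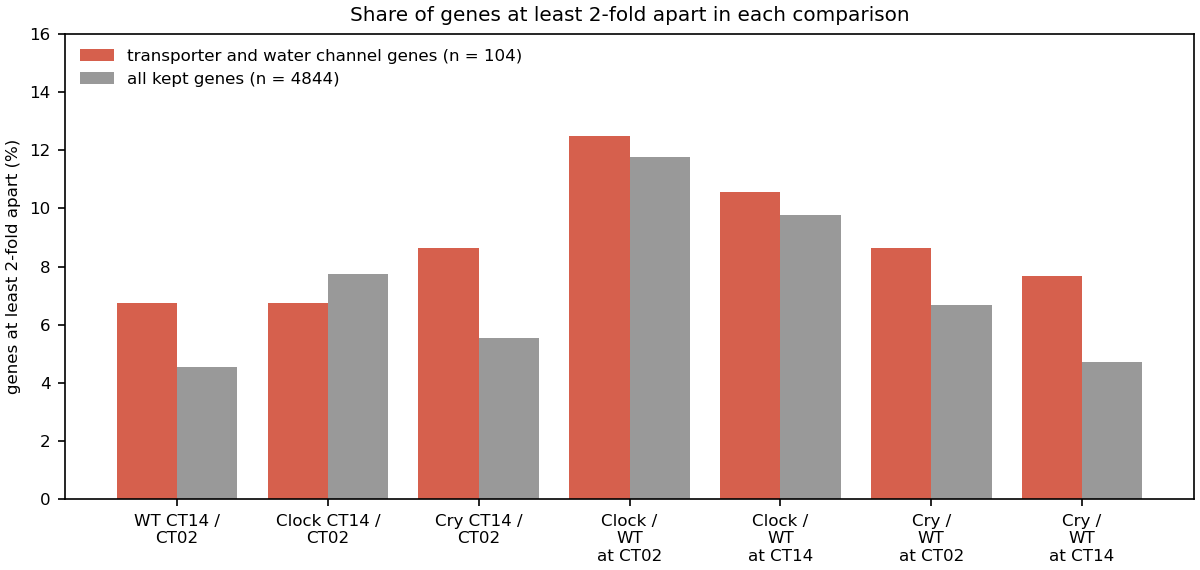
Share of genes at least 2-fold apart (y axis, percent) in each of the 7 comparisons, for the 104 kept transporter and water channel genes and for all 4844 kept genes, with Cry for the Cry-labelled arrays. The shares of the members lie between 6.73% and 12.5% and those of all genes between 4.56% and 11.8%.

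Promoter windows of 300 bases run from 250 before to 50 after an annotated start (RefSeq, GRCm38.p6). Of the members at least 2-fold apart in a comparison, 23 had such windows, and 5 of these genes hold the E-box CACGTG (a palindrome, so the same on both strands). For the other kept members it was 9 of 62 genes. By window this was 6 of 31 (19.4%), beside 9 of 92 (9.78%) for the other kept members. The 6 count the same E-box of Slc12a7 more than once, in overlapping windows. Neither difference was tested. The windows of 4 of the 5 genes are shown because the results below turn on these genes, a choice made with their values known. Capitals mark the E-box.
Aqp8: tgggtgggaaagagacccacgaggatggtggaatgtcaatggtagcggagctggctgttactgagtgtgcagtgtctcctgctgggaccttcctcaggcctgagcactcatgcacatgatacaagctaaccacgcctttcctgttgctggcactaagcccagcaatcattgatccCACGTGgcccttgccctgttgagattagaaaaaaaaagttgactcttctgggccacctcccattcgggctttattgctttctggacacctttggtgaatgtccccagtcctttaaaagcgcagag
Slc20a1: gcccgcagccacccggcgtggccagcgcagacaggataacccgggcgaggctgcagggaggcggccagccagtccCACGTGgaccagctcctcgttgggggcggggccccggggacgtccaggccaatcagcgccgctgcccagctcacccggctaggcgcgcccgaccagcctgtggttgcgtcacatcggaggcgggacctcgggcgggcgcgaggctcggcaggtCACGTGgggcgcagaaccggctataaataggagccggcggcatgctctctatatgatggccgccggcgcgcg
Slc26a1: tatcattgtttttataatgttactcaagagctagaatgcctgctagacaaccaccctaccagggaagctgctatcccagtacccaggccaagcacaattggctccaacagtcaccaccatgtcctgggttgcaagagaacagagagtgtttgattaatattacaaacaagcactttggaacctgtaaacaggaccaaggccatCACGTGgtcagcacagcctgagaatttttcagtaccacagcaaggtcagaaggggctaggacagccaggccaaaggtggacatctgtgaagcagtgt
Slc25a1: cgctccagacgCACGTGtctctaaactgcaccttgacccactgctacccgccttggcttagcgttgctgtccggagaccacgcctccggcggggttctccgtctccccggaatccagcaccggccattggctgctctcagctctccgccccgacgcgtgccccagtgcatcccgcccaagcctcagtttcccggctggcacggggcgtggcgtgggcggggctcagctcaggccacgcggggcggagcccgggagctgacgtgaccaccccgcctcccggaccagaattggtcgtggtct
The windows lie at chr7:123462044-123462343 on the plus strand (Aqp8), chr2:129198523-129198822 on the plus strand (Slc20a1), chr5:108674747-108675046 on the minus strand (Slc26a1, at 1 of its annotated starts) and chr16:17928170-17928469 on the minus strand (Slc25a1). The E-box begins 75 bases before the start in Aqp8, 175 and 22 bases before it in Slc20a1, 47 in Slc26a1 and 239 in Slc25a1. The other of the 5 was Slc12a7. Promoter windows were found for 140 of the 176 members, and 25 of their 195 windows (12.8%) held the E-box, against 7.15% of all 32851 windows in the table. By gene this was 23 of the 140, against 2187 of 27025. The D-box TTATGTAA, read on both strands, was in 1 member window (0.513%), that of Slc17a1, against 0.938% of all windows. A match says only that these letters are present. Abcc5 and Aqp9 held neither motif in their windows.

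Aqp8 had the widest range of the kept members that read above the floor on all 6 arrays. Aqp8, which passes water and other small molecules across membranes of the hepatocyte, stood at 6276 and 10958 units in the Clock mutant at CT14 and CT02, 1644 and 743 on the Cry-labelled arrays, and 970.1 and 3899 in wild type. Both Clock mutant arrays lay above all the others and did not overlap with wild type. Aqp8 was 6.47-fold higher in the Clock mutant than in wild type at CT14 and 2.81-fold higher at CT02 (log2 ratio 1.49, and 0.94 on the unscaled values). The Actb control ratios of the Clock mutant and wild-type arrays were 1.15 and 0.93 at CT14 and 2.68 and 0.84 at CT02. On the Cry-labelled CT02 array the Actb and Gapdh control ratios were 1.70 and 2.37. What part these ratios have in the Aqp8 differences was not tested. On the Cry-labelled arrays Aqp8 was 5.25-fold lower than in wild type at CT02 and had a log2 ratio of 0.76 at CT14. Between times it was 4.02-fold lower at CT14 than at CT02 in wild type and 2.21-fold higher at CT14 on the Cry-labelled arrays, with a log2 ratio of -0.80 in the Clock mutant. The time ratio of the Cry-labelled arrays thus exceeded that of wild type by 3.15 on the log2 scale, the largest such difference among members above the floor on all 4 arrays.

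Aqp9, the channel through which hepatocytes take up glycerol, read 9589.6 and 5296 units in the Clock mutant at CT14 and CT02, 10829 and 12977 on the Cry-labelled arrays, and 9811 and 14053 in wild type. It was lowest on the Clock mutant CT02 array, where it was 2.65-fold lower than in wild type, and close to wild type in the Clock mutant at CT14 (log2 ratio -0.03). So on the Clock mutant CT02 array Aqp8 was above and Aqp9 below its wild-type level. Aqp1, a water channel of endothelial cells, bile ducts and red cells, differed little, at 5198 and 4550.4 units in the Clock mutant at CT14 and CT02, 6018 and 5042 on the Cry-labelled arrays, and 5501 and 5177 in wild type. The other 3 aquaporins on the array were not kept.

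**Figure D2:**
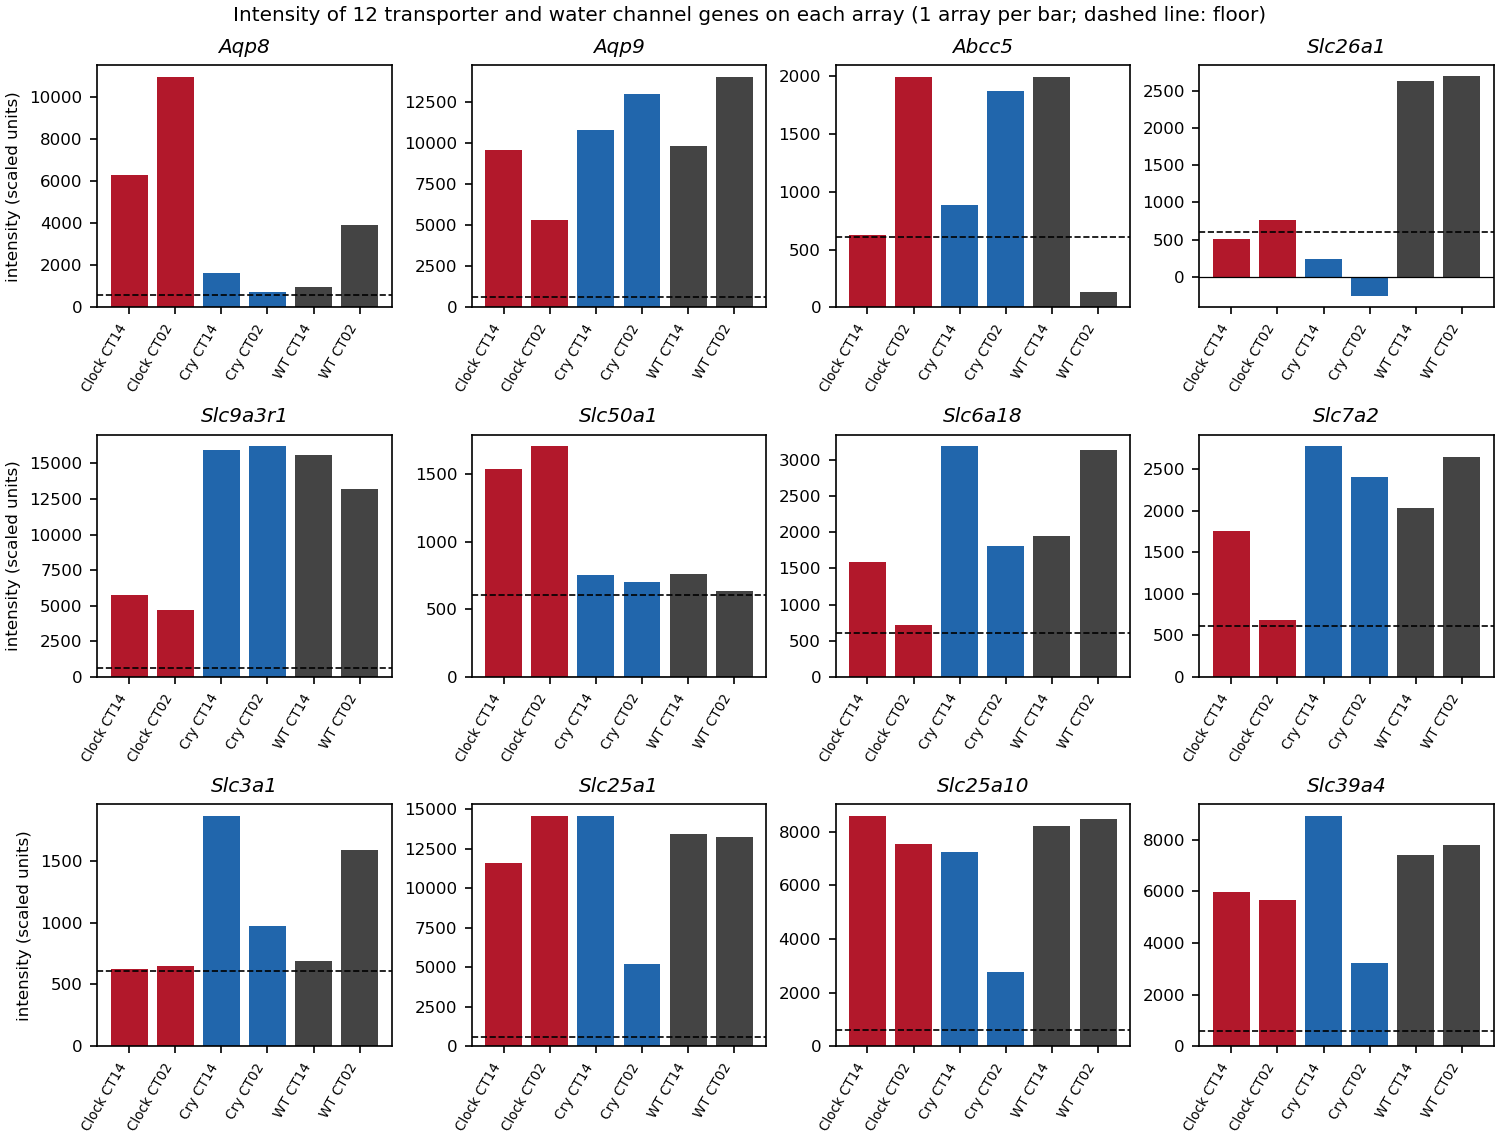
Scaled intensity (y axis, linear, own scale for each gene) of 12 members on each of the 6 arrays, with the Clock mutant in red, the Cry-labelled arrays in blue (Cry), wild type (WT) in grey and the floor of 606 units dashed. Aqp8 is highest on both Clock mutant arrays, Slc26a1 is above the floor by a wide margin on the wild-type arrays only, and Slc25a1, Slc25a10 and Slc39a4 are lowest on the Cry-labelled CT02 array.

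Among the ATP-binding cassette transporters, Abcc5 was the only kept member at least 2-fold apart in all 7 comparisons (on the unscaled values the Cry-labelled CT14 over CT02 log2 ratio was -0.87, short of 2-fold). Abcc5, which exports cyclic nucleotides and other organic anions, read 626 and 1989 units in the Clock mutant at CT14 and CT02, 887 and 1871 on the Cry-labelled arrays, and 1994 and 129 in wild type. Its wild-type CT02 value lay below the floor, and its Clock mutant CT14 value lay near it. The wild-type CT14 value of Abcc5 was the highest of the 6. At CT14 it was at least 3.29-fold higher than at CT02 in wild type, but 3.18-fold lower in the Clock mutant and 2.11-fold lower on the Cry-labelled arrays. Against wild type it was 3.18-fold lower in the Clock mutant and 2.25-fold lower on the Cry-labelled arrays at CT14, and at least 3.28-fold higher and at least 3.09-fold higher at CT02. All 4 of these comparisons use the same pair of wild-type arrays, and the gene has a single probe set.

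Abcb9, a peptide transporter of the lysosome, stood at 1919 and 1610.2 units in the Clock mutant at CT14 and CT02, 1675 and -500.4 on the Cry-labelled arrays, and 1821 and 169.8 in wild type. It lay below the floor on the Cry-labelled and wild-type CT02 arrays and between 1610.2 and 1919 on the other 4. At CT14 it was at least 3.0-fold higher in wild type and at least 2.76-fold higher on the Cry-labelled arrays. Abcb10, a mitochondrial transporter, stood at 1148 units at CT14 and 503 (below the floor) at CT02 in wild type, at least 1.89-fold higher at CT14, a bound that leaves a 2-fold difference unread. The remaining 8 kept transporters of this superfamily were not 2-fold apart anywhere. Abcb4, which moves phosphatidylcholine into bile, read 11741 and 10905 units in the Clock mutant at CT14 and CT02, 13476 and 14227 on the Cry-labelled arrays, and 11714 and 13170.0 in wild type, and its groups lay close together. Abcc3, which exports conjugates to the blood, was lowest on the Cry-labelled CT14 array (9216 units, against 13932 at CT02). Abcg1, a sterol exporter, had a log2 ratio over wild type of -0.54 at CT14 and -0.91 at CT02 in the Clock mutant. Abca1, which passes cholesterol to apolipoprotein A-I, was within 2-fold on its brighter probe set, with 5600.1 units at CT02 in the Clock mutant and 5584 in wild type, but its second probe set read 383 and 1998.

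Among carriers and partners of inorganic ions, Slc26a1 and Slc9a3r1 were lower in the Clock mutant than in wild type at either time. Slc26a1, which exchanges sulfate, oxalate and bicarbonate, read 507 and 757 units in the Clock mutant at CT14 and CT02, 246 and -262 on the Cry-labelled arrays, and 2625 and 2693 in wild type. Both wild-type arrays were above all 4 mutant arrays, of which 1 (Clock mutant at CT02) was above the floor. In the Clock mutant it was at least 4.33-fold lower than in wild type at CT14 and 3.56-fold lower at CT02. For the Cry-labelled arrays the gene was at least 4.44-fold lower than in wild type at CT02 and at least 4.33-fold lower at CT14. Slc9a3r1, the scaffold that anchors ion transporters beneath the membrane, read 5741 and 4676 units in the Clock mutant at CT14 and CT02, 15921 and 16201 on the Cry-labelled arrays, and 15562 and 13198 in wild type. Its Clock mutant arrays lay below the other 4, 2.71-fold lower than wild type at CT14 and 2.82-fold lower at CT02, while the Cry-labelled and wild-type arrays lay between 13198 and 16201 units.

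Slc20a1, a sodium and phosphate cotransporter, stood at 1094 and 558 units in the Clock mutant at CT14 and CT02, 1588 and 1160.2 on the Cry-labelled arrays, and 2529.7 and -47.7 in wild type. It was at least 4.17-fold higher at CT14 than at CT02 in wild type, where the CT02 value was below 0 as deposited and scaled, and 2.31-fold lower in the Clock mutant than in wild type at CT14. Slc12a7, a potassium and chloride cotransporter, read 3462 and 5304 units in the Clock mutant at CT14 and CT02, 4562 and 1735 on the Cry-labelled arrays, and 3284 and 3556 in wild type. It was lowest on the Cry-labelled CT02 array, 2.05-fold lower than in wild type, and was 2.63-fold higher at CT14 than at CT02 on the Cry-labelled arrays. Slc4a3, a chloride and bicarbonate exchanger, was at least 2.36-fold higher on the Cry-labelled array than in wild type at CT14 only as a bound, since its wild-type CT14 value was below 0. Over the 12 kept genes of this group, the median log2 ratio lay between -0.13 and 0.09 in the 7 comparisons.

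The amino acid carriers were grouped by the number in their symbol, and not all carry amino acids. At CT02, 10 of the 15 kept read lower in the Clock mutant than in wild type, and 3 of the 15 were at least 2-fold lower. Slc6a2, a noradrenaline transporter among the 10, was lower only as a bound (244 against 943 units). Of all kept genes 49.4% read lower there and 7.51% were at least 2-fold lower. The median log2 ratio of the 15 was -0.28, beside -0.00 over all kept genes. At CT14 10 of the 15 also read lower in the Clock mutant (median -0.14), beside 50.5% of all kept genes. On the Cry-labelled arrays 12 read lower than wild type at CT02 (median -0.14) and 7 at CT14 (median 0.09), beside 48.1% and 51.1% of all. This family is 1 of 19 counted in 7 comparisons. Slc6a18, a neutral amino acid transporter known from kidney, stood at 1593 and 717 units in the Clock mutant at CT14 and CT02, 3189.8 and 1805 on the Cry-labelled arrays, and 1943 and 3145 in wild type, and was 4.39-fold lower in the Clock mutant than in wild type at CT02. Slc7a2, which takes up arginine and other cationic amino acids, read 1756 and 682 units in the Clock mutant at CT14 and CT02, 2773 and 2408 on the Cry-labelled arrays, and 2034 and 2646 in wild type, and was 3.88-fold lower there. Slc3a1, the heavy subunit of a cystine and dibasic amino acid transporter, read 627 and 648 units in the Clock mutant at CT14 and CT02, 1863 and 971 on the Cry-labelled arrays, and 689 and 1589.8 in wild type, and was 2.45-fold lower. For Slc6a18 and Slc7a2 the Clock mutant CT02 array was the lowest of the 6, whereas Slc3a1 was near the floor on both Clock mutant arrays and on the wild-type CT14 array. The Clock mutant CT02 array is the one with the Actb control ratio of 2.68, whose part in these differences was not tested. At CT14 the Clock mutant to wild type log2 ratios of these 3 genes were -0.29, -0.21 and -0.14. Of the kidney markers, Cdh16 was below the floor on all arrays and Umod on all but the Cry-labelled CT02 array (734 units). Kap read -100.2 and 117 in the Clock mutant, 2719 and 294 on the Cry-labelled arrays, and 4506 and 2635 in wild type at CT14 and CT02, and its part in these differences was not tested. Pck1, the fourth, is also a liver gene and read 7836 and 13613, 8209.9 and 10524, and 11139 and 6546 on the same arrays.

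Time separated these carriers in other ways. Slc38a2, a neutral amino acid transporter, read 2719 and 1201 units in the Clock mutant at CT14 and CT02, 2133 and 2059.7 on the Cry-labelled arrays, and 1048 and 1472 in wild type. It was 2.26-fold higher at CT14 than at CT02 in the Clock mutant, and at CT14 was 2.59-fold higher in the Clock mutant and 2.03-fold higher on the Cry-labelled array than in wild type. Its other 3 probe sets lay below the floor on every array. Slc1a2, a glutamate transporter, stood at 1186 and 938 units in the Clock mutant at CT14 and CT02, 2382 and 2548 on the Cry-labelled arrays, and 2696 and 1076 in wild type, 2.51-fold higher at CT14 than at CT02 in wild type and level on the Cry-labelled arrays (log2 ratio -0.10). Slc3a1 was 2.31-fold lower at CT14 in wild type but had a log2 ratio of 0.94 on the Cry-labelled arrays. Slc6a2, grouped here by number but a noradrenaline transporter, gave disagreeing probe sets: the brighter was at least 3.59-fold higher at CT14 in the Clock mutant (2175 against 244 units), the other lay below the floor on both of those arrays, and with both averaged the log2 ratio was 0.71. Slc38a4 and Slc3a2, carriers of neutral amino acids and the common heavy subunit of several exchangers, were bright and within 2-fold throughout. Slc3a2 read 4966 and 5379 units in the Clock mutant at CT14 and CT02, 5075 and 4762 on the Cry-labelled arrays, and 5159 and 5085 in wild type.

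Of the 17 kept mitochondrial carriers, all but Slc25a1, Slc25a10, Slc25a25 and Slc25a3 were 2-fold apart in no comparison. Slc25a1, which exports citrate from mitochondria, stood at 11612 and 14538 units in the Clock mutant at CT14 and CT02, 14570.5 and 5222 on the Cry-labelled arrays, and 13399.5 and 13239.7 in wild type. On 5 arrays it read 11612 units or more, and it was lowest on the Cry-labelled CT02 array, 2.54-fold lower than in wild type. Its second probe set gave a log2 ratio of -0.81 there. Slc25a10, the dicarboxylate carrier, read 8599 and 7534 units in the Clock mutant at CT14 and CT02, 7263 and 2789.7 on the Cry-labelled arrays, and 8226 and 8486 in wild type, again lowest on the Cry-labelled CT02 array, 3.04-fold lower than in wild type. Slc25a25, which exchanges ATP-Mg for phosphate, read 9330.0 and 10134 units in the Clock mutant at CT14 and CT02, 13004 and 7291 on the Cry-labelled arrays, and 10064 and 14647 in wild type, 2.01-fold lower on that array. At CT14 on the Cry-labelled arrays Slc25a1 and Slc25a10 were 2.79-fold higher and 2.6-fold higher than at CT02, and at CT14 they had log2 ratios over wild type of 0.12 and -0.18. Of the 17, 3 were at least 2-fold lower on the Cry-labelled array than in wild type at CT02 and none was higher, beside 3.96% lower and 2.73% higher of all kept genes, and the median log2 ratio was -0.01, beside 0.01 over all kept genes. Slc25a20, the carnitine and acylcarnitine carrier, read 13119 and 13302 units in the Clock mutant at CT14 and CT02, 13568 and 14444 on the Cry-labelled arrays, and 14056 and 13706 in wild type, a range of 0.14 on the log2 scale over the 6 arrays. Slc25a39, which is needed for glutathione import, read 19087 and 21809 units in the Clock mutant at CT14 and CT02, 22080.2 and 22070.0 on the Cry-labelled arrays, and 21842 and 21682 in wild type. Slc25a3, the phosphate carrier, read at or below 622 units on the Cry-labelled and wild-type arrays and 1211 and 1637 units in the Clock mutant.

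Zinc carriers gave a similar picture on the Cry-labelled CT02 array for 1 gene. Slc39a4, a zinc importer best known from intestine, stood at 5995 and 5671 units in the Clock mutant at CT14 and CT02, 8928 and 3235 on the Cry-labelled arrays, and 7401 and 7806 in wild type. It was 2.41-fold lower on the Cry-labelled array than in wild type at CT02 and 2.76-fold higher at CT14 than at CT02 on the Cry-labelled arrays, with log2 ratios of -0.32 and 0.74 on its second probe set. For the Clock mutant at CT02, relative to wild type, its probe sets pointed opposite ways (-0.46 and 0.87). Slc39a7, which releases zinc from the secretory pathway, read 3519 and 3505 units in the Clock mutant at CT14 and CT02, 5956 and 6388 on the Cry-labelled arrays, and 7686 and 5968 in wild type. Both Clock mutant arrays lay below the other 4, 2.18-fold lower than wild type at CT14 and with a log2 ratio of -0.77 at CT02. Slc30a4, a zinc exporter, was 2.49-fold higher in the Clock mutant than in wild type at CT02 (2439 against 978 units; unscaled log2 ratio 0.77). Slc30a1, the zinc exporter of the plasma membrane, had 1779.6 units at CT14 and 913 at CT02 in wild type, just under 2-fold. Of the metal carriers, Slc31a1, the copper importer, had the smallest range of all kept members (0.11 on the log2 scale), at 13744 and 13146 units in the Clock mutant at CT14 and CT02, 12760.3 and 12745 on the Cry-labelled arrays, and 13798 and 13008 in wild type. Slc11a1, a divalent metal transporter of phagocytes, read 523 and 442 units in the Clock mutant at CT14 and CT02, 716 and 1006 on the Cry-labelled arrays, and 756 and 785 in wild type. It was highest on the Cry-labelled CT02 array, where the summed level of the 9 kept macrophage markers was also highest, 49004 units, against 27461 to 39494 on the other 5 arrays. Of the 9, Cd68 and C1qc were not highest there and C1qa was lowest there (1508 units, against 4779 to 6165 elsewhere). Their part in it was not tested. Slc11a2, which imports iron, was 2780.3 units at CT14 and 5028 at CT02 in wild type (log2 ratio -0.85, and 0.15 on its second probe set).

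Of the sugar carriers, those 2-fold apart were dim. Slc2a2, the main glucose transporter of hepatocytes, read 17378 and 15565 units in the Clock mutant at CT14 and CT02, 14616 and 13461 on the Cry-labelled arrays, and 18968 and 14434 in wild type, and was 2-fold apart in no comparison. Slc2a8, an intracellular hexose transporter, read 3040.3 and 149.6 units in the Clock mutant at CT14 and CT02, 1984 and 1942 on the Cry-labelled arrays, and 1795 and 1882 in wild type. It was below the floor on the Clock mutant CT02 array alone, and so at least 5.02-fold higher at CT14 in the Clock mutant. Its second probe set was below the floor on all arrays, and with both averaged that log2 ratio was 1.22, and -0.09 for the Clock mutant against wild type at CT02. Slc2a3, a glucose transporter best known from neurons, was 2.22-fold higher on the Cry-labelled array than in wild type at CT14 (1688 against 761 units) and had a log2 ratio of 0.78 at CT02. Its second probe set lay below the floor on all arrays, and with both averaged the CT14 log2 ratio was 0.68. Slc50a1, a sugar transporter, read 1543 and 1707 units in the Clock mutant at CT14 and CT02, 757 and 706 on the Cry-labelled arrays, and 764 and 632 in wild type. Both Clock mutant arrays read 1543 units or more and the other 4 between 632 and 764, and it was 2.02-fold higher in the Clock mutant than in wild type at CT14 and 2.7-fold higher at CT02, with unscaled log2 ratios of 0.93 and 0.88. Slc37a4, which carries glucose 6-phosphate into the endoplasmic reticulum, stood at 9939 and 10468 units in the Clock mutant at CT14 and CT02, 14718 and 16247 on the Cry-labelled arrays, and 16640.5 and 8770.5 in wild type. In wild type it was 1.90-fold higher at CT14 than at CT02, short of 2-fold, and its log2 time ratio was -0.07 in the Clock mutant and -0.14 on the Cry-labelled arrays.

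Carriers of vitamins, choline and other organic solutes added a few members. Slc44a1, a choline transporter, read 1199 and 1643 units in the Clock mutant at CT14 and CT02, 2343 and 3326 on the Cry-labelled arrays, and 445 and 2432 in wild type. Its wild-type CT14 value was below the floor, and it was at least 4.01-fold lower at CT14 than at CT02 in wild type. Slc19a1, the reduced folate carrier, was 2.28-fold lower at CT14 than at CT02 in the Clock mutant (645 against 1471 units) on a probe set that may read related sequences. On the unscaled values the log2 ratio was -0.69, and its other probe set was below 0 on all arrays. Slc16a8, a lactate transporter, was at least 3.15-fold lower at CT14 on the Cry-labelled arrays (65.2 against 1908 units). Slc66a2 was 2.08-fold lower in the Clock mutant than in wild type at CT14 (4709 against 9787 units). None of the 7 kept organic ion carriers, the 6 nucleotide sugar carriers or the pair of fatty acid transport proteins Slc27a2 and Slc27a5 was 2-fold apart in any comparison. Slc27a2, which activates and takes up long fatty acids, read 15504 and 18340.3 units in the Clock mutant at CT14 and CT02, 15433 and 18469 on the Cry-labelled arrays, and 17846 and 16431 in wild type. Slc22a30, of the organic anion family, read 18391 and 19828 units in the Clock mutant at CT14 and CT02, 18001 and 14296 on the Cry-labelled arrays, and 17625 and 16179 in wild type.

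Several members under 2-fold read on 1 side of wild type at both times. In the Clock mutant, Slc10a3 had log2 ratios to wild type of 0.72 at CT14 and 0.95 at CT02, and Slc22a21, a carnitine transporter, 0.61 and 0.53. Slc6a9, a glycine transporter, had -0.59 and -0.51 there. On the Cry-labelled arrays Slc35a1, which carries CMP-sialic acid into the Golgi, had 0.49 and 0.40, and Slc23a2, a vitamin C transporter, 0.32 and 0.26. These genes lay above wild type at both times except Slc6a9, which lay below it. Below wild type on the Cry-labelled arrays were Slc35b2, which carries the sulfate donor PAPS into the Golgi (-0.38 and -0.97), and Slc33a1, which carries acetyl-CoA into the endoplasmic reticulum (-0.62 and -0.35). Among the brightest members, Abcd3, a peroxisomal transporter of fatty acyl-CoA, read 17596 and 21692 units in the Clock mutant at CT14 and CT02, 16290.3 and 21714 on the Cry-labelled arrays, and 18989.9 and 18670.0 in wild type, 2-fold apart in no comparison.

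**Figure D3:**
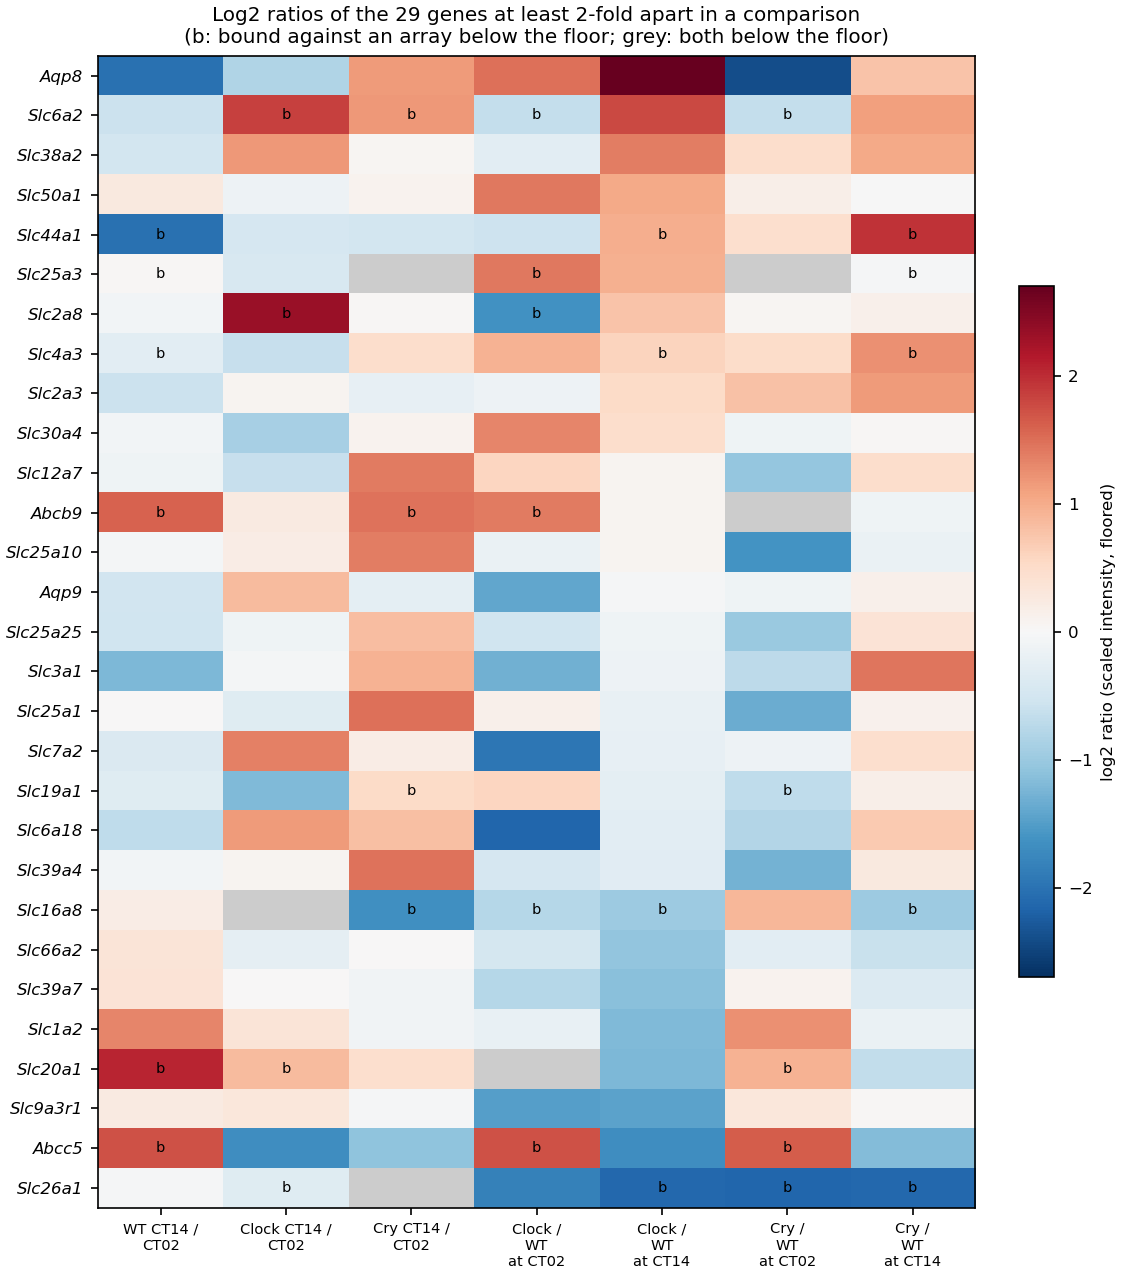
Log2 ratio of scaled intensity (colour; red higher and blue lower in the group named before the slash) for the 29 members at least 2-fold apart in 1 or more of the 7 comparisons (columns), where Cry stands for the Cry-labelled arrays, b marks a bound and grey a pair of values below the floor. Abcc5 is coloured strongly in all 7 columns, Slc26a1 is blue in the 4 columns of mutant over wild type, and most rows are pale in most columns.

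Of the 104 kept members, 35 (33.7%) had their lowest value on the Cry-labelled CT02 array, beside 19.6% of all kept genes. Values below the floor have no order, so the lowest array is read only for genes with at most 1 array below it. Of these 94 members 28 (29.8%) were lowest on the Cry-labelled CT02 array, beside 19.3% of 4338 such genes, and 21 (22.3%, beside 25.7%) were lowest on the Clock mutant CT02 array. Each of the other 4 arrays was the lowest for 8 to 16 of the 94 members. The 28 included 6 of 15 mitochondrial carriers, 5 of 14 amino acid carriers, 3 of 10 zinc carriers, and both kept members of ATP-binding cassette subfamily A. None of the 94 in subfamilies B, C, D or G was lowest there. For Abca1 this depends on the probe set. Its second read 383 units on the Clock mutant CT02 array and 1242 on the Cry-labelled one. The tally takes no account of size: Slc31a1 read 12745 units at CT02 and 12760 at CT14 on the Cry-labelled arrays. For the 104 kept members the median log2 ratio of the Cry-labelled CT02 array to wild type was -0.05, beside 0.01 for all kept genes. Against wild type on that array, 7 kept members were at least 2-fold lower, all of them named above. That array also had the highest Gapdh control ratio and the highest macrophage sum given above, whose parts in this were not tested. Aqp8, Slc25a1, Slc25a10, Slc25a25, Slc39a4 and Slc12a7 were at least 2-fold lower there on both arrays above the floor, and Slc26a1 as a bound.

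**Figure D4:**
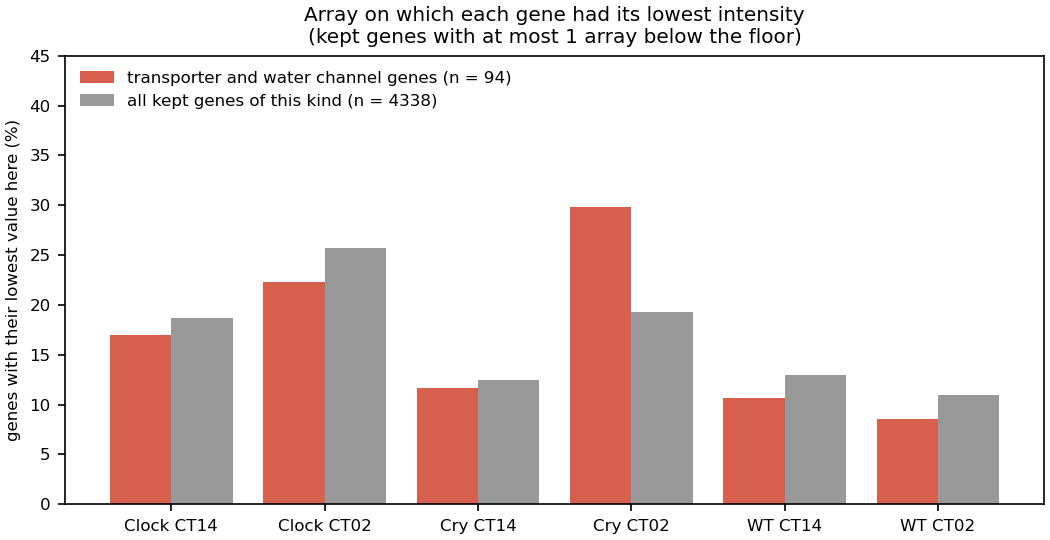
Share of genes (y axis, percent) whose lowest intensity of the 6 arrays was on the array named on the x axis, for the 94 members and the 4338 of all kept genes with at most 1 array below the floor, with Cry for the Cry-labelled arrays. The Cry-labelled CT02 array holds the lowest value of 29.8% of these members and of 19.3% of all such genes.

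Other transport genes outside the naming rule, among them ion pumps, chloride channels and the mitochondrial porins, were set beside the members. Of 28 on the array 14 were kept, and none of them was counted as 2-fold apart between CT14 and CT02 in any genotype. This is unread for Clcn4 in the Clock mutant (621 against 74.1 units, below the floor at CT02). It is also unread for Cftr on the Cry-labelled arrays, both below the floor. Against wild type, Clcn4, a chloride and proton exchanger, was 2.53-fold lower in the Clock mutant at CT14 and at least 2.54-fold lower at CT02, and Cftr, a chloride channel and the kept cholangiocyte marker, was 2.58-fold higher at CT02. On the Cry-labelled arrays none of the 14 was counted as 2-fold from wild type. Cftr was at least 1.77-fold lower there at CT14, a bound that leaves a 2-fold difference unread.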

How the data were processed

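Liver RNA of 6 groups was measured on 6 one-colour Affymetrix arrays (12488 probe sets, 66 of them controls). The deposited table holds an intensity for each probe set on each array. These values, as made by the authors, are whole numbers, some below 0, and their means differ between arrays (1637 to 2486), as read from the values. The sources name neither the software nor the background subtraction.

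For scaling, the geometric mean of each of 6065 probe sets was taken, and the median ratio to it was the divisor for an array. The median of all scaled values, 606 units, served as a floor, to which lower values were raised before log2. Of 10833 probe sets with a single symbol, 10817 matched the RefSeq table (GRCm38.p6) by gene number. A gene was read by its brightest probe set, and genes with a mean at or above the floor were kept. Differences of at least 2-fold were counted in 7 comparisons, with no test. The comparisons of each mutant use the same wild-type arrays. Levels of different probe sets are not comparable. Signal over background limits the dim genes: 2 to 8 of the 104 kept members were below the floor on an array.

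Members and lists were chosen with earlier results of these data known. Named genes were Aqp8 and Abcc5, up to 8 members in each direction per comparison by measured log2 ratio and up to 5 by bound, up to 5 in each direction by the smaller difference at both times and by the difference of time ratios, the 5 brightest and the 5 with the smallest range, and up to 4 per family. Promoters to print were chosen with values known. The procedure was tested on simulated data. Tools were Python 3.11.15, numpy 2.4.6, pandas 2.3.3 and statsmodels 0.14.6. The 11 alternatives planned covered scaling, floor, filter, probe sets and threshold, and 3 ways of counting were added after seeing the data.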

Additional observations from a re-analysis of the deposited data

Results flagged for a closer look

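Abcc5 and Aqp8 differed between CT14 and CT02 by at least 2-fold in opposite directions in a pair of genotypes. With 1 array per group these differences were not tested. For Abcc5, the log2 time ratio of the Clock mutant minus that of wild type was -3.39 (-1.67 against 1.72), and that of the Cry-labelled arrays minus that of wild type was -2.79 (-1.08 against 1.72). The same values are the differences of the Abcc5 ratio of Clock mutant over wild type (-3.39) and of Cry-labelled over wild type (-2.79) between CT14 and CT02. All of them rest on the wild-type CT02 value of 129 units, below the floor, so the true size may be larger. Those of the Clock mutant also rest on its CT14 value of 626 units, near the floor. For Aqp8, the log2 time ratio of the Cry-labelled arrays minus that of wild type was 3.15 (1.15 against -2.01), with all 4 values above the floor and the Cry-labelled CT02 value, 743 units, near it.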

How the results depend on the processing

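No paired analysis was possible because the labels give no replicate numbers and each group has 1 array. Of the 588 values of the 64 single-gene differences of at least 2-fold under the alternatives, 568 lay within 1.5-fold of the value reported, 20 moved by more but kept their direction, and 0 changed sign. Part of this was fixed in advance: a changed filter leaves a gene's ratio as it was, and a changed floor cannot turn its sign. Leaving out probe sets with a letter also changes nothing for genes read by one without. Differences of genes that a setting left out, most often the filter at the 75th percentile, are not among the 588. Of the 20, 16 were larger bounds with the floor at the 25th percentile. The other 4 came from averaging all probe sets, with log2 ratios for the Clock mutant of 1.22 (Slc2a8) and 0.71 (Slc6a2) between times, and against wild type of -0.09 (Slc2a8, CT02) and 0.41 (Slc6a2, CT14). Of the 64, 17 fell under 2-fold in at least 1 alternative, 8 of them on the values as deposited (Abcb9, Abcc5, Aqp8, Slc19a1, Slc25a3, Slc30a4 and both of Slc50a1) and 7 with probe sets averaged (Slc2a3, Slc2a8, Slc39a4 and 4 of Slc6a2). Slc12a7, Slc25a25 and Slc50a1 did so by a small margin under another scaling, at 0.98 or more in size on the log2 scale. Of 91 counts of members 2-fold apart, 74 were within 1.5 times the reported count. On the values as deposited the Clock mutant counts were 11 between times and 23 against wild type at CT02. With the floor at the 25th percentile the Cry-labelled count against wild type at CT02 was 14. The filter at the 75th percentile kept 54 of the 104 members, leaving out the dimmer ones. The counts between times were then 1 in wild type, 0 in the Clock mutant and 5 on the Cry-labelled arrays. Against wild type the counts were 4 and 3 for the Clock mutant at CT14 and CT02, and 0 for the Cry-labelled array at CT14. At 3-fold they were 3 in the Clock mutant and 1 on the Cry-labelled arrays between times, 4 and 5 for the Clock mutant and 2 and 4 for the Cry-labelled arrays against wild type at CT14 and CT02. Counting only members above the floor on both arrays gave 3 in wild type between times and 5 for the Cry-labelled array against wild type at CT14. The number of members lowest on the Cry-labelled CT02 array was 19 with the filter at the 75th percentile (35.2% of 54) and between 25 and 45 otherwise. Its share was above that of all kept genes in each of these settings, and smallest on the values as deposited (25 of 104, beside 17.6% of all). These counts include members with several arrays below the floor, where values have no order. Without a filter they take in the 52 members below the floor on all arrays. The count that can be read, 28 of 94, was not repeated in these settings, so its dependence on them is not known.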

Other observations

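Among the 72 members that were not kept, some read above the floor on more than 1 array. Slc2a1, the glucose transporter of most dividing cells, read 1059.6 and 947 units in the Clock mutant at CT14 and CT02, -354 and -273 on the Cry-labelled arrays, and 326 and 281 in wild type, above the floor in the Clock mutant alone. Slc27a4, a fatty acid transport protein, read 145 and 72.8 units in the Clock mutant at CT14 and CT02, 772 and 296 on the Cry-labelled arrays, and 919 and 932 in wild type, and both of its Clock mutant values were below the floor. Slc15a2, a peptide transporter, read 163 and 116 units in the Clock mutant at CT14 and CT02, 198 and 329 on the Cry-labelled arrays, and 618 and 673 in wild type, just above the floor in wild type alone. Slc5a6, a vitamin transporter, read 225 and -212 units in the Clock mutant at CT14 and CT02, 1119 and 1125 on the Cry-labelled arrays, and 901 and 2.75 in wild type. These genes were chosen after their values were seen, and no fold is given for them.

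The anion exchanger of red cells, Slc4a1, was below the floor on every array. The neurotransmitter and kidney carriers Slc6a3, Slc32a1, Slc18a3 and Slc22a6 and the water channels Aqp2 and Aqp4 were not kept either.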
